A study of Mus musculus with 8 samples.

Results

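Mitochondrial ribosomal protein genes were examined in the livers of *Rragc* S74N/+ and *Rragc* +/+ mice. Genes were taken by name, as all entries starting with Mrpl or Mrps and a digit, and 1 entry for a pseudogene was dropped. This gave 77 of the 14506 genes listed, of which 50 encode proteins of the large subunit of the mitochondrial ribosome and 26 proteins of the small subunit. *Mrps18a* and *Mrps30* are named after the small subunit but their products sit in the large one, and both were counted there. The remaining gene, *Mrps36*, carries a ribosomal name but encodes a subunit of the alpha-ketoglutarate dehydrogenase complex of the citric acid cycle.

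RNA from whole liver was sequenced in 4 mice of each genotype. *Rragc* +/+ replicates 1 to 3 were 3 months old and replicate 4 was 2.5 months old. Of the *Rragc* S74N/+ mice, replicates 1 and 2 were 3 months old, replicate 3 was 2.5 months old and replicate 4 was 2 months old. S74N replaces a serine with an asparagine in RagC, a GTPase that signals amino acid and glucose sufficiency to the kinase complex mTORC1, and it was introduced together with silent changes by Cas9 editing of blastocysts on a C57BL/6 background. The mutation is in every cell type and on only 1 allele, because mice with both alleles mutated do not survive, so the livers also hold normal RagC. The sex of these mice is not given in the sources used here.

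The mitochondrial ribosome translates the few messenger RNAs encoded by mitochondrial DNA, all of them for subunits of the respiratory chain and ATP synthase. Its ribosomal RNAs come from mitochondrial DNA, but its proteins are encoded in the nucleus, made in the cytosol and imported. Hepatocytes are rich in mitochondria, and mTORC1 is known to promote translation of messenger RNAs for nuclear-encoded mitochondrial proteins, mitoribosomal proteins among them, through the 4E-BP repressors. The libraries measured messenger RNA levels and not that translation step.

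The libraries were 3′-end libraries, in which each transcript gives about 1 tag whatever its length, and the values are normalized read counts, which were divided by a size factor for each liver. Whole reads were recovered from them and numbered 4313076 to 6632108 per liver in listed genes, the lowest in *Rragc* +/+ replicate 3. Mitoribosomal protein genes took 0.240% to 0.335% of these reads. The 7 hepatocyte markers were all listed, with summed levels of 235600 to 334112 in *Rragc* +/+ and 255436 to 433969 in *Rragc* S74N/+ livers, whereas the summed levels stayed at or below 137 in any liver for the 7 listed of 8 lymphocyte markers and the 3 listed of 6 neutrophil markers. Kupffer cell markers summed to 1232 to 1781 in *Rragc* +/+ and 1285 to 2300 in *Rragc* S74N/+ livers, and 2 of 6 (*Marco* and *Adgre1*) were higher at an unadjusted limma p under 0.05. Likewise 2 of 6 endothelial markers (*Lyve1* and *Pecam1*), summing to 925 to 1277 and 913 to 1280, and 1 of 5 tested stellate cell markers (*Col1a1*), whose 6 listed genes summed to 1798 to 2219 and 1670 to 2166, were higher at that level. Of all tested genes, 2.37% were higher at that level. By sign, 5 hepatocyte markers lay above 0 and 2 below, with a median log2 difference of 0.36 and 0 at that level. For Kupffer cell markers it was 5 and 1 (median 0.27). For endothelial markers it was 4 and 2 (median 0.28), and for tested stellate cell markers 3 and 2 (median 0.02). None of these markers passed adjustment, and their part in the values below was not tested. Summed kidney tubule markers, mainly *Kap*, were 95.4 to 204 in *Rragc* +/+ and 24.5 to 64.3 in *Rragc* S74N/+ livers, without overlap. Of the 5 listed, 1 was tested, and it was lower at an unadjusted limma p under 0.05. Its log2 difference was -2.20 (SE 0.54, adjusted limma p 0.846), and the cause was not tested. Where a sentence gives a value for every liver, the values stand in the order of replicates 1 to 4. Each library is labelled as a separate mouse, so p-values measure the spread between these mice. *Rragc* itself had 84.1 ± 20.4 (SD, n = 4) normalized reads in *Rragc* +/+ against 76.6 ± 7.32 (SD, n = 4) in *Rragc* S74N/+ livers. The log2 difference was -0.11 (SE 0.25), and tags from the 3′ end do not read the edited codon, which is in the first exon.

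The promoters of these genes are known for sites of NRF1, of ETS factors such as GABP and of YY1, regulators of nuclear genes for mitochondrial proteins. Promoters from 250 bases before to 50 bases after the start, as given by RefSeq on GRCm38.p6, were found for 68 of the 77 genes, 74 promoters in all because some genes have several starts. The NRF1 core, CGCATGCG, was in 9.46% of them, against 3.81% of 10909 promoters of tested genes and 1.87% of all 32851 promoters. The ETS motif CCGGAAG was in 33.8%, against 17.6% and 8.86%, and the YY1 core ATGGCGG in 16.2%, against 8.19% and 4.05%. Both strands were searched, and different motifs of the 3 cannot overlap by their letters. At least 1 of the 3 motifs was in 36 of the 74 promoters, which is 48.6% (95% Wilson interval 37.6% to 59.8%, counting error only), against 26.5% of promoters of tested genes and 13.5% of all promoters. The interval takes each promoter as separate, although windows of the same gene can overlap, as those of *Mrpl2* do. A match is a stretch of letters and was not tested as a binding site.

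**Figure D1:**
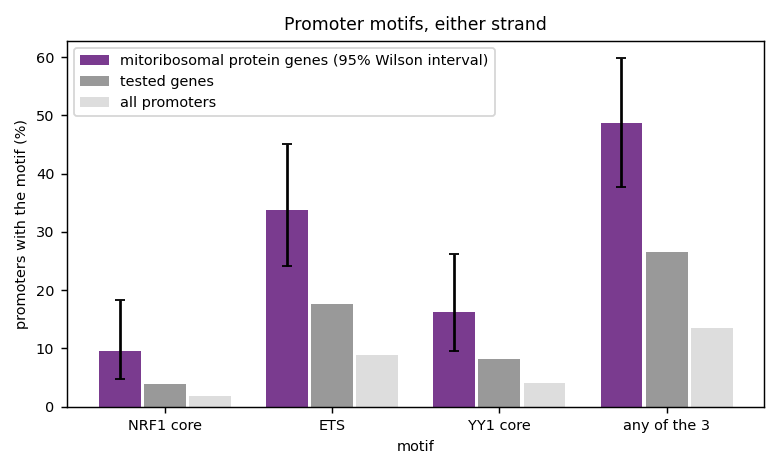
Percentage of promoters holding each motif on either strand (vertical axis) for mitoribosomal protein genes (purple, with 95% Wilson intervals), all tested genes (dark grey) and all promoters (light grey). The purple bars are the tallest for each motif, with 48.6% against 26.5% and 13.5% for any of the 3.

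The promoters of 6 genes are shown from 150 bases before to 30 bases after the start, 5′ to 3′ in the direction of the gene, with motif matches in capitals. The first 4 show the motif classes: an ETS match in *Mrps12* at chr7:28741792-28741971 (reverse strand), ETS and YY1 matches in *Mrps18a* at chr17:46110854-46111033 (forward strand), a pair of NRF1 matches in *Mrpl32* at chr13:14613008-14613187 (reverse strand) and 1 NRF1 match in *Mrpl39* at chr16:84735215-84735394 (reverse strand). The other two, *Mrpl12* at chr11:120484487-120484666 (forward strand) and *Mrpl2* at chr17:46646071-46646250 (forward strand), are genes described below for their levels, and neither window holds any of the 3 motifs.
Mrps12: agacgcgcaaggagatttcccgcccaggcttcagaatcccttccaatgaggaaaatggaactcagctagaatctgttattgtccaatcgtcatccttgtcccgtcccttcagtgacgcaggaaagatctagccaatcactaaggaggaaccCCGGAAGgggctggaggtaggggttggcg
Mrps18a: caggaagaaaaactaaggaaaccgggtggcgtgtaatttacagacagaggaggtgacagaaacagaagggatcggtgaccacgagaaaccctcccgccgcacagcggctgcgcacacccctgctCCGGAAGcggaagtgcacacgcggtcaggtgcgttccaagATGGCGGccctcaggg
Mrpl32: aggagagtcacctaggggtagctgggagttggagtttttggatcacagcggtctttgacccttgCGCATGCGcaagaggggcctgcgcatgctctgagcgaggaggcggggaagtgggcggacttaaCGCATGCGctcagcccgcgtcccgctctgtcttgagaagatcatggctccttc
Mrpl39: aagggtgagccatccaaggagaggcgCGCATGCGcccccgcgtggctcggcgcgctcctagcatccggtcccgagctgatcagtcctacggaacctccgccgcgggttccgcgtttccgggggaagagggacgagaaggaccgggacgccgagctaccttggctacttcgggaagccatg
Mrpl12: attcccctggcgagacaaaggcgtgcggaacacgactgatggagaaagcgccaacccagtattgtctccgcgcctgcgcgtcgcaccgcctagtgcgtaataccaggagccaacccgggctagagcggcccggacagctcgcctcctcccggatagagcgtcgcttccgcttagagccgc
Mrpl2: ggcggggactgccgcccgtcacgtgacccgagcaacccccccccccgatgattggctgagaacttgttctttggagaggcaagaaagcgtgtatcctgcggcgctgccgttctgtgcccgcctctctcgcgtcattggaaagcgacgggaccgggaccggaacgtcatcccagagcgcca

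The genes lie on 17 chromosomes, with 11 of them on chromosome 11. A gene start on the opposite strand within 1000 bases upstream was found for 20 of the 76 tested genes (26.3%; 95% Wilson interval 17.7% to 37.2%), against 15.4% of 11130 tested genes of the whole table that were placed in the annotation. For protein-coding neighbours the shares were 23.7% and 10.3%. *Mrps12*, at chr7:28739641-28741820 on the reverse strand of GRCm38, starts 172 bases from *Sars2*, the mitochondrial seryl-tRNA synthetase, and *Mrpl2*, at chr17:46646229-46650139 on the forward strand, starts 207 bases from *Klc4*, a kinesin light chain. These neighbours were chosen after the positions were read, from 18 genes with a protein-coding neighbour. The log2 difference was -0.60 for *Mrps12* and -0.17 for *Sars2*, and it was -0.34 for *Mrpl2* against 0.00 for *Klc4*. Among other pairs it was -0.60 for *Mrpl41* and -0.61 for *Pnpla7*, and -0.33 for *Mrps18b* and 0.01 for *Ppp1r10*. For *Mrpl32* it was -0.04, against 0.74 for *Psma2*. These are differences of log2(normalized count + 1), *Rragc* S74N/+ minus *Rragc* +/+, the scale of all log2 differences given here.

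The summed level of mitoribosomal protein transcripts overlapped between genotypes. The normalized counts of the 77 genes summed to 19018, 18889, 14671 and 19539 in the *Rragc* +/+ mice. They summed to 16925, 16455, 17467 and 16157 in the *Rragc* S74N/+ mice. The *Rragc* S74N/+ livers lay close together, whereas 3 of the *Rragc* +/+ livers lay above all of them and replicate 3, the shallowest library, lay below all of them. The means were 18029 ± 2257 (SD, n = 4) and 16751 ± 573 (SD, n = 4), a log2 ratio of -0.11, which was -0.19 without *Rragc* +/+ replicate 3 and -0.065 without *Rragc* +/+ replicate 4. The difference in the mean log2 value of the tested genes was -0.0062. The difference between the means was smaller than the SD of the *Rragc* +/+ livers. In whole liver, fewer cells of a type and less RNA per cell cannot be told apart. The summed large-subunit genes were 1.79 ± 0.08 (SD, n = 4) times the small-subunit genes in *Rragc* +/+ and 1.89 ± 0.08 (SD, n = 4) times in *Rragc* S74N/+ livers, with ranges of 1.72 to 1.91 and 1.78 to 1.95 that overlapped.

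**Figure D2:**
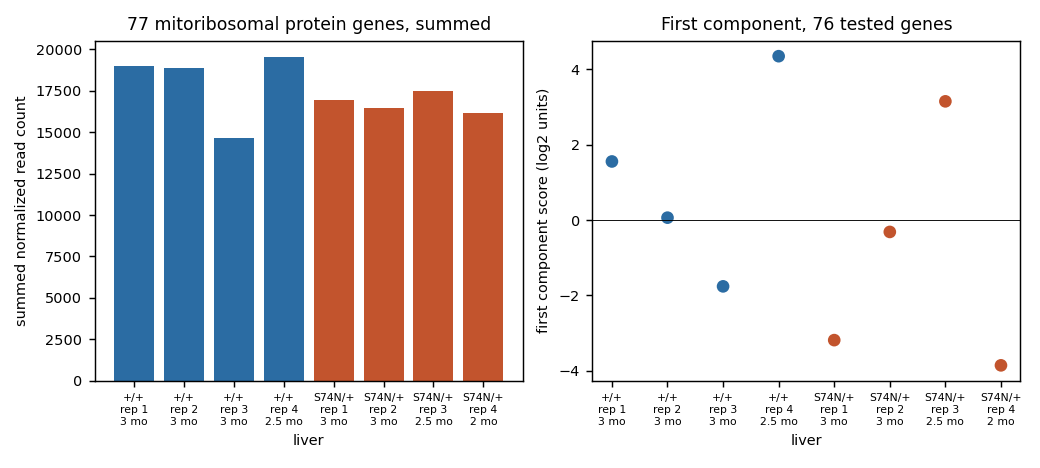
Left, the summed normalized read count of the 77 mitoribosomal protein genes in each liver (bars from 0; blue, *Rragc* +/+; orange, *Rragc* S74N/+; replicate and age in months under each bar). Right, the score of each liver on the first principal component of the 76 tested genes, in log2 units. The lowest bar is *Rragc* +/+ replicate 3 at 14671, and the scores of the genotypes overlap, with the highest at 4.35 and the lowest at -3.86.

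Single genes were compared next, to see whether any mitoribosomal protein gene differed between genotypes. Of the 77 genes, 76 passed a mean normalized count of at least 10 and were tested with limma on log2(normalized count + 1) among 11174 genes. None of the 76 passed an adjusted p of 0.05, and 1 gene of the whole table did (0.00895%). The smallest adjusted p among the 76 genes was 0.846, and edgeR and DESeq2 on the recovered reads also called none. At an unadjusted p under 0.05, 3 of the 76 genes (3.95%), *Mrps12*, *Mrpl12* and *Mrpl48*, stood out in limma, all lower in *Rragc* S74N/+ livers, against 5.17% of all tested genes, of which 2.37% were higher and 2.8% lower. edgeR and DESeq2 both gave *Mrps12*, *Mrpl12* and *Mrpl41* as lower and *Mrpl39* as higher at that level, 4 genes beside 5.53% and 6.05% of all tested genes, and neither gave *Mrpl48*. Limma without each liver in turn gave 0 to 11 of the 76 genes. It gave 0 without *Rragc* +/+ replicate 1 (2.98% of all tested genes), *Rragc* +/+ replicate 4 (3.89%) or *Rragc* S74N/+ replicate 4 (2.81%), and 1 without *Rragc* S74N/+ replicate 1 (3.87%). It gave 2 without *Rragc* S74N/+ replicate 2 (4.86%), 5 without *Rragc* +/+ replicate 2 (5.41%), 7 without *Rragc* +/+ replicate 3 (6.78%) and 11 without *Rragc* S74N/+ replicate 3 (15.0%).

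The differences lay on both sides of 0. The median log2 difference of the 76 genes was -0.01, beside 0.01 over all tested genes, with 36 values above 0 and 40 below. They ran from -0.64 for *Mrps18a* to 0.93 for *Mrpl39*, and 67 of the 76 were smaller than 0.5 in either direction. The 95% interval lay within a 2-fold change in either direction for 56 of the 76 genes (73.7%), against 50.9% of all tested genes, whose median level was 78.7 normalized reads beside 158 for the mitoribosomal protein genes. For the other 20 genes the interval reached past 2-fold. The median SD over the 8 livers was 0.35 on the log2 scale, beside 0.46 for all tested genes.

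**Figure D3:**
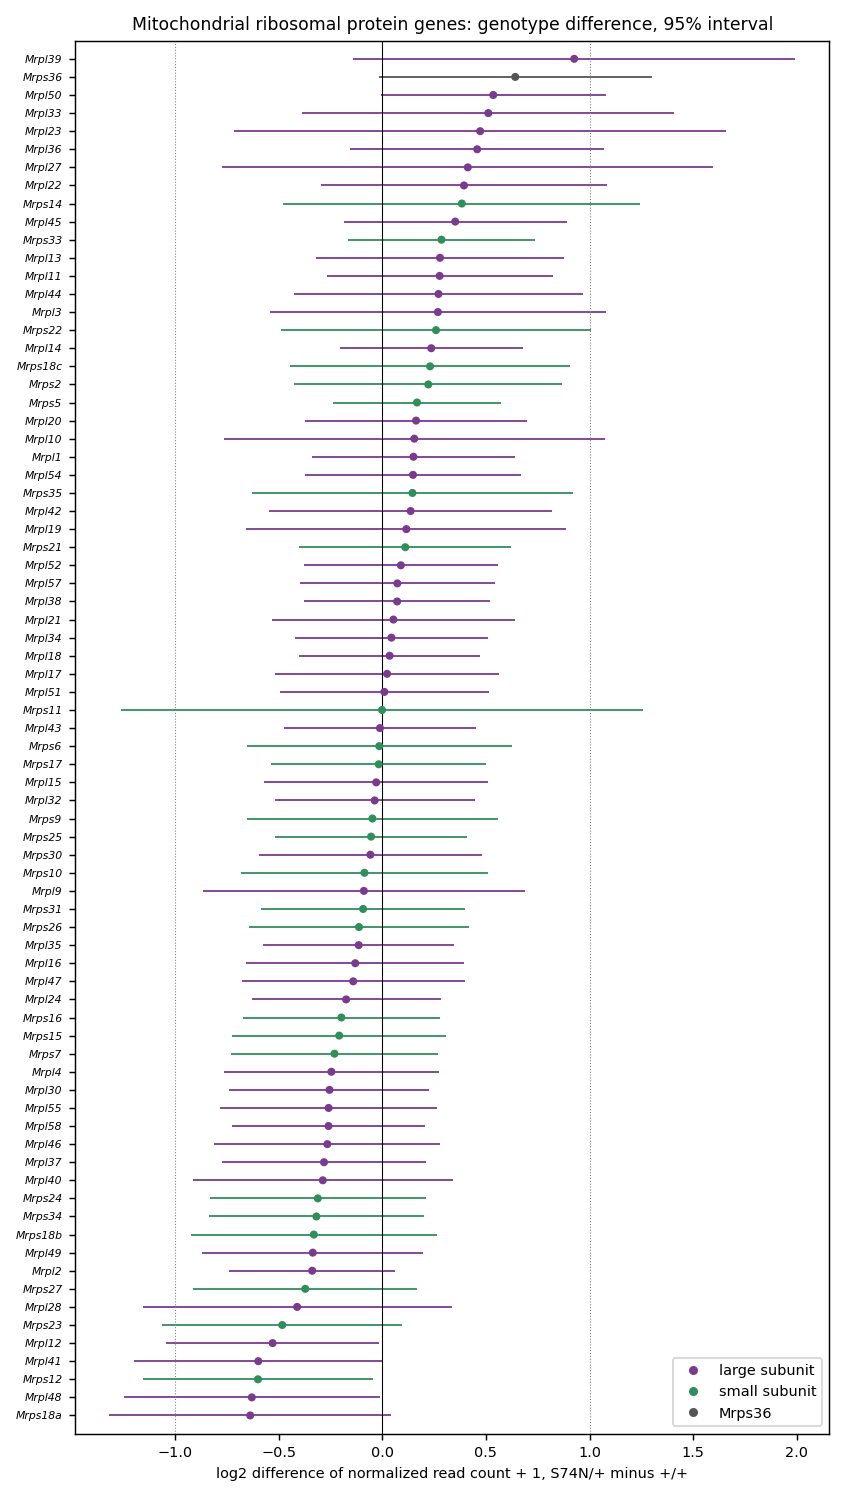
Log2 difference of normalized read count + 1, *Rragc* S74N/+ minus *Rragc* +/+ (horizontal axis), for each tested mitoribosomal protein gene (vertical axis, in order of the difference), with the 95% interval of limma as a line. Dotted lines mark a 2-fold change in either direction, purple is the large subunit, green the small subunit and grey *Mrps36*. The points run from -0.64 to 0.93, and 3 intervals, those of *Mrps12*, *Mrpl12* and *Mrpl48*, lie wholly below 0.

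By role, the large-subunit genes had a median log2 difference of 0.03, with 27 above 0 and 23 below, and the small-subunit genes one of -0.05, with 8 above and 17 below. Among large-subunit genes with a bacterial counterpart, which form the ancestral core, the median was 0.04 over 30 genes. Among those found only in mitochondrial ribosomes it was -0.00 over 20 genes. The small-subunit medians were -0.02 over 15 genes with a bacterial counterpart and -0.10 over 10 without. *Mrps18a* and *Mrps18b*, although descended from the bacterial S18 gene, were counted among the genes without a bacterial counterpart.

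*Mrps12* encodes a protein at the decoding centre of the small subunit. It had 1126, 873, 586 and 1036 normalized reads in the *Rragc* +/+ mice, against 613, 664, 715 and 387 in the *Rragc* S74N/+ mice. The groups overlapped through *Rragc* +/+ replicate 3, which was lower than 3 of the *Rragc* S74N/+ livers. The log2 difference was -0.60 (SE 0.26, 95% interval -1.15 to -0.04), with an unadjusted limma p of 0.036 and an adjusted p of 0.846. The exact two-sided permutation test over the 70 labellings gave p = 0.114.

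*Mrpl12*, at chr11:120484613-120489065 on the forward strand, encodes the protein of the flexible stalk of the large subunit. The stalk recruits translation factors, and the protein also binds the mitochondrial RNA polymerase. Its levels were 1051, 919, 655 and 1179 in the *Rragc* +/+ mice, against 594, 646, 888 and 504 in the *Rragc* S74N/+ mice. The lowest *Rragc* +/+ liver was again replicate 3, and *Rragc* S74N/+ replicate 3 reached into the *Rragc* +/+ range. This gave a log2 difference of -0.53 (SE 0.24, unadjusted limma p 0.044, exact permutation p 0.057).

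*Mrpl48*, a large-subunit gene without a bacterial counterpart at chr7:100545751-100608301 on the reverse strand, had 345, 241, 270 and 438 normalized reads in the *Rragc* +/+ mice, against 147, 191, 345 and 176 in the *Rragc* S74N/+ mice. Only *Rragc* S74N/+ replicate 3 lay within the *Rragc* +/+ range. Their log2 difference was -0.63 (SE 0.29, unadjusted limma p 0.046, exact permutation p 0.143). *Mrpl48*, like *Mrpl23* and *Mrps36*, has an annotated pseudogene, between which and the gene reads could be split.

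*Mrpl2*, which encodes a protein near the peptidyl transferase centre, was the single gene of the 76 whose groups did not overlap (1.32%, against 2.94% of all tested genes). It had 507, 463, 402 and 423 normalized reads in the *Rragc* +/+ mice, against 308, 383, 371 and 356 in the *Rragc* S74N/+ mice. Every *Rragc* S74N/+ liver was below every *Rragc* +/+ liver, by at least the gap from 383 to 402. Its log2 difference was -0.34 (SE 0.18, 95% interval -0.74 to 0.06), with an unadjusted limma p of 0.090. The exact permutation p of 0.029 is the smallest that 4 against 4 livers can give, and *Gm26904* overlaps the gene on the same strand. The count of genes whose genotype groups did not overlap was 5 without *Rragc* +/+ replicate 2 (5.91% of all tested genes). It was 7 without *Rragc* +/+ replicate 3 (6.94%), 9 without *Rragc* S74N/+ replicate 3 (12.01%) and 3 without *Rragc* S74N/+ replicate 4 (4.13%).

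**Figure D4:**
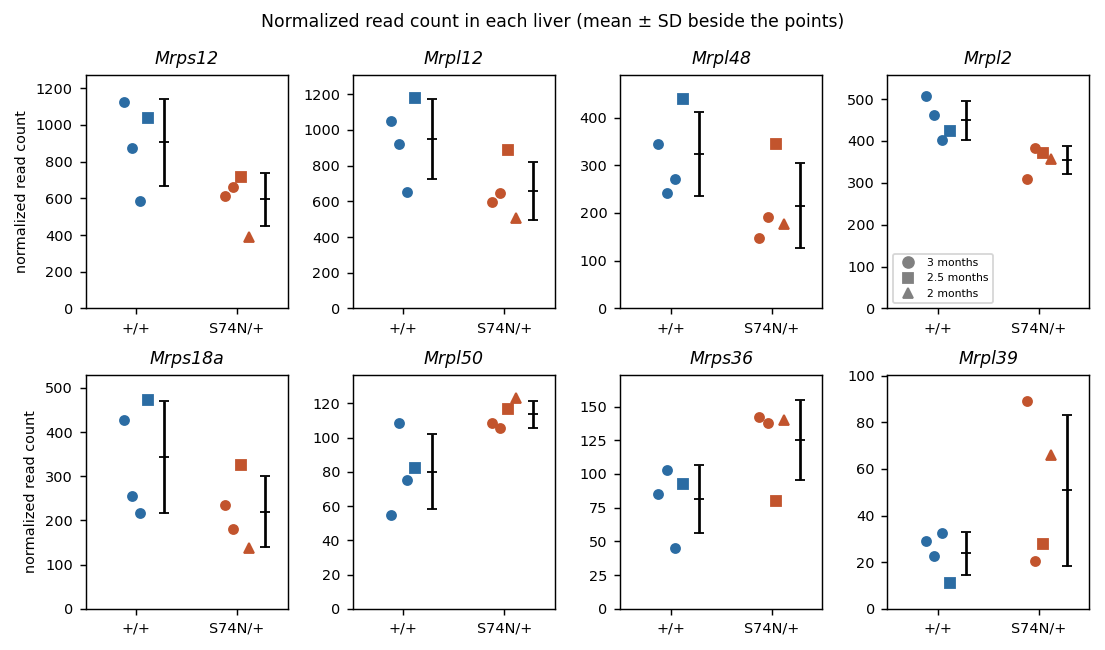
Normalized read count (vertical axes, from 0) of 8 mitoribosomal protein genes in each liver, with *Rragc* +/+ in blue and *Rragc* S74N/+ in orange, the marker shape giving the age, and the mean ± SD beside the points. The genotypes overlap in each panel except that of *Mrpl2*, where the *Rragc* S74N/+ livers at 308 to 383 lie below the *Rragc* +/+ livers at 402 to 507.

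The other large negative differences were those of *Mrps18a* and *Mrpl41*. *Mrps18a*, at chr17:46110986-46128910 on the forward strand, is 1 of 3 paralogs descended from the bacterial S18 gene. It had 427, 256, 216 and 474 normalized reads in the *Rragc* +/+ mice, against 234, 181, 325 and 138 in the *Rragc* S74N/+ mice, with overlapping groups and a log2 difference of -0.64 (SE 0.31). The paralogs *Mrps18b* and *Mrps18c*, both of the small subunit, had log2 differences of -0.33 (SE 0.27) and 0.23 (SE 0.31), and none of the 3 passed an unadjusted limma p of 0.05. *Mrps18b* was -0.12 without *Rragc* +/+ replicate 4, -0.51 without *Rragc* +/+ replicate 3 and -0.07 in 3-month-old mice alone, and *Mrps18c* was -0.0051 without *Rragc* +/+ replicate 3 and 0.43 without *Rragc* S74N/+ replicate 3. *Mrpl41*, a large-subunit gene of mitochondria alone, had 180, 116, 110 and 235 in the *Rragc* +/+ mice, against 79.0, 103, 116 and 108 in the *Rragc* S74N/+ mice. Its log2 difference was -0.60 (SE 0.28, unadjusted limma p 0.051), and -0.39 without *Rragc* +/+ replicate 4.

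The 5 largest positive differences were in genes with mean normalized counts of 25.4 to 103. The median was 158 for the mitoribosomal protein genes and 78.7 for all tested genes. *Mrpl39*, another mitochondria-specific large-subunit gene, at chr16:84717576-84735742 on the reverse strand, had 28.9, 22.4, 32.5 and 11.2 normalized reads in the *Rragc* +/+ mice, against 89.1, 20.4, 27.9 and 66.1 in the *Rragc* S74N/+ mice. *Rragc* S74N/+ replicates 1 and 4 lay above all others, and the other two *Rragc* S74N/+ livers lay within the *Rragc* +/+ range. The log2 difference was 0.93 with a 95% interval from -0.14 to 1.99, and it was 0.58 without *Rragc* S74N/+ replicate 1. *Mrpl50* had 55.0, 108, 75.0 and 82.2 in the *Rragc* +/+ mice, against 108, 106, 117 and 123 in the *Rragc* S74N/+ mice. Only *Rragc* +/+ replicate 2 reached the *Rragc* S74N/+ range, and the log2 difference was 0.54 (SE 0.25, unadjusted limma p 0.053). *Mrpl33* and *Mrpl23*, the latter at the exit of the peptide tunnel, had differences of 0.51 (SE 0.42) and 0.47 (SE 0.55) with overlapping groups. *Mrpl33* ranged from 0.16 without *Rragc* +/+ replicate 4 to 0.77 without *Rragc* S74N/+ replicate 3, and *Mrpl23* from 0.17 without *Rragc* S74N/+ replicate 4 to 0.97 without *Rragc* +/+ replicate 3. *Mrps36* had 84.8, 103, 45.3 and 92.5 in the *Rragc* +/+ mice, against 142, 138, 80.2 and 140 in the *Rragc* S74N/+ mice, with a log2 difference of 0.64 (SE 0.31, unadjusted limma p 0.056). Its groups overlapped through *Rragc* S74N/+ replicate 3, and the difference was 0.39 without *Rragc* +/+ replicate 3.

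The most abundant genes of the group, as 3′ tags, were *Mrpl12*, *Mrps21* and *Mrpl34*. *Mrps21* had 781 ± 249 (SD, n = 4) normalized reads in *Rragc* +/+ against 821 ± 122 (SD, n = 4) in *Rragc* S74N/+ livers, and *Mrpl34* had 766 ± 159 and 784 ± 122 (SD, n = 4 each). Neither difference exceeded its standard error. The steadiest genes over the 8 livers were *Mrps5*, *Mrpl32* and *Mrps25*, with SDs of 0.17, 0.18 and 0.18 on the log2 scale. *Mrps5*, a small-subunit gene, had 325, 375, 284 and 337 normalized reads in the *Rragc* +/+ mice, against 404, 341, 338 and 401 in the *Rragc* S74N/+ mice, a log2 difference of 0.17 (SE 0.19) that was 0.098 without *Rragc* +/+ replicate 3. *Mrpl58*, which encodes a peptidyl-tRNA hydrolase built into the large subunit, and *Mrps30* had log2 differences of -0.26 (SE 0.22) and -0.06 (SE 0.25). That of *Mrpl58* was -0.14 without *Rragc* S74N/+ replicate 1. *Mrps28* did not pass the filter, with 5.59, 0, 8.49 and 0.934 in the *Rragc* +/+ mice, against 21.1, 0, 0 and 27.7 in the *Rragc* S74N/+ mice.

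Livers of both genotypes shared a common axis of variation. The first principal component of the 76 tested genes held 57.9% of their variance and the next 14.6%. Scores were 1.56, 0.06, -1.76 and 4.35 for the *Rragc* +/+ mice, against -3.19, -0.32, 3.15 and -3.86 for the *Rragc* S74N/+ mice. The 2.5-month-old mice of both genotypes had the highest scores, the single 2-month-old mouse had the lowest, and the 3-month-old mice lay between. Age, with 2 mice at 2.5 months, and any other property of these mice cannot be told apart. The first component of all tested genes, which held 39.9% of their variance, placed the 8 livers in the same order.

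Along this axis the loadings of the genes ran from 0.20 to -0.31 without a gap at 0, where *Mrpl51* had 0.0085 and *Mrpl24* -0.0022. Loadings were positive for 37 genes, led by *Mrpl28*, *Mrps18a*, *Mrpl48*, *Mrps23* and *Mrps18b*, and negative for 39, led by *Mrpl27*, *Mrps11*, *Mrpl39*, *Mrpl33* and *Mrpl23*, all named after the loadings were seen. *Mrpl28* had 369, 331, 235 and 569 normalized reads in the *Rragc* +/+ mice, against 231, 353, 437 and 146 in the *Rragc* S74N/+ mice. *Mrpl27* had 64.3, 47.7, 97.6 and 36.4 in the *Rragc* +/+ mice, against 140, 60.4, 22.3 and 181 in the *Rragc* S74N/+ mice. The first was highest in the 2.5-month-old mice and lowest in the 2-month-old mouse, and the second ran the other way. Genes with positive loadings were the more abundant, with a median of 251 normalized reads beside 127. The genes named above for lower values in *Rragc* S74N/+ livers, *Mrps12*, *Mrpl12*, *Mrpl48*, *Mrps18a* and *Mrpl41*, all had positive loadings, and *Mrpl39*, *Mrpl33* and *Mrpl23* had negative ones.

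Other genes varied in a like order of livers. *Alb*, the hepatocyte gene for serum albumin, had 68581, 72360, 166784 and 57178 normalized reads in the *Rragc* +/+ mice, against 134887, 137256, 80712 and 252840 in the *Rragc* S74N/+ mice. The 4 livers with the highest scores had 57178 to 80712 and the other 4 had 134887 to 252840. The clock gene *Nr1d1* had 734 and 846 in the 2.5-month-old mice and 154 to 390 in the other livers, and *Dbp*, an output gene of the clock, had 57.9 and 126 against 3.74 to 11.3. *Arntl*, a core clock activator whose level cycles opposite to these, had 21.5 and 20.1 in the 2.5-month-old mice and 56.6 to 146 in the others. The clock genes were chosen after values were seen, and the time of day at which livers were taken is not given in the sources used here. The part of *Alb* and of these genes in the pattern was not tested.

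**Figure D5:**
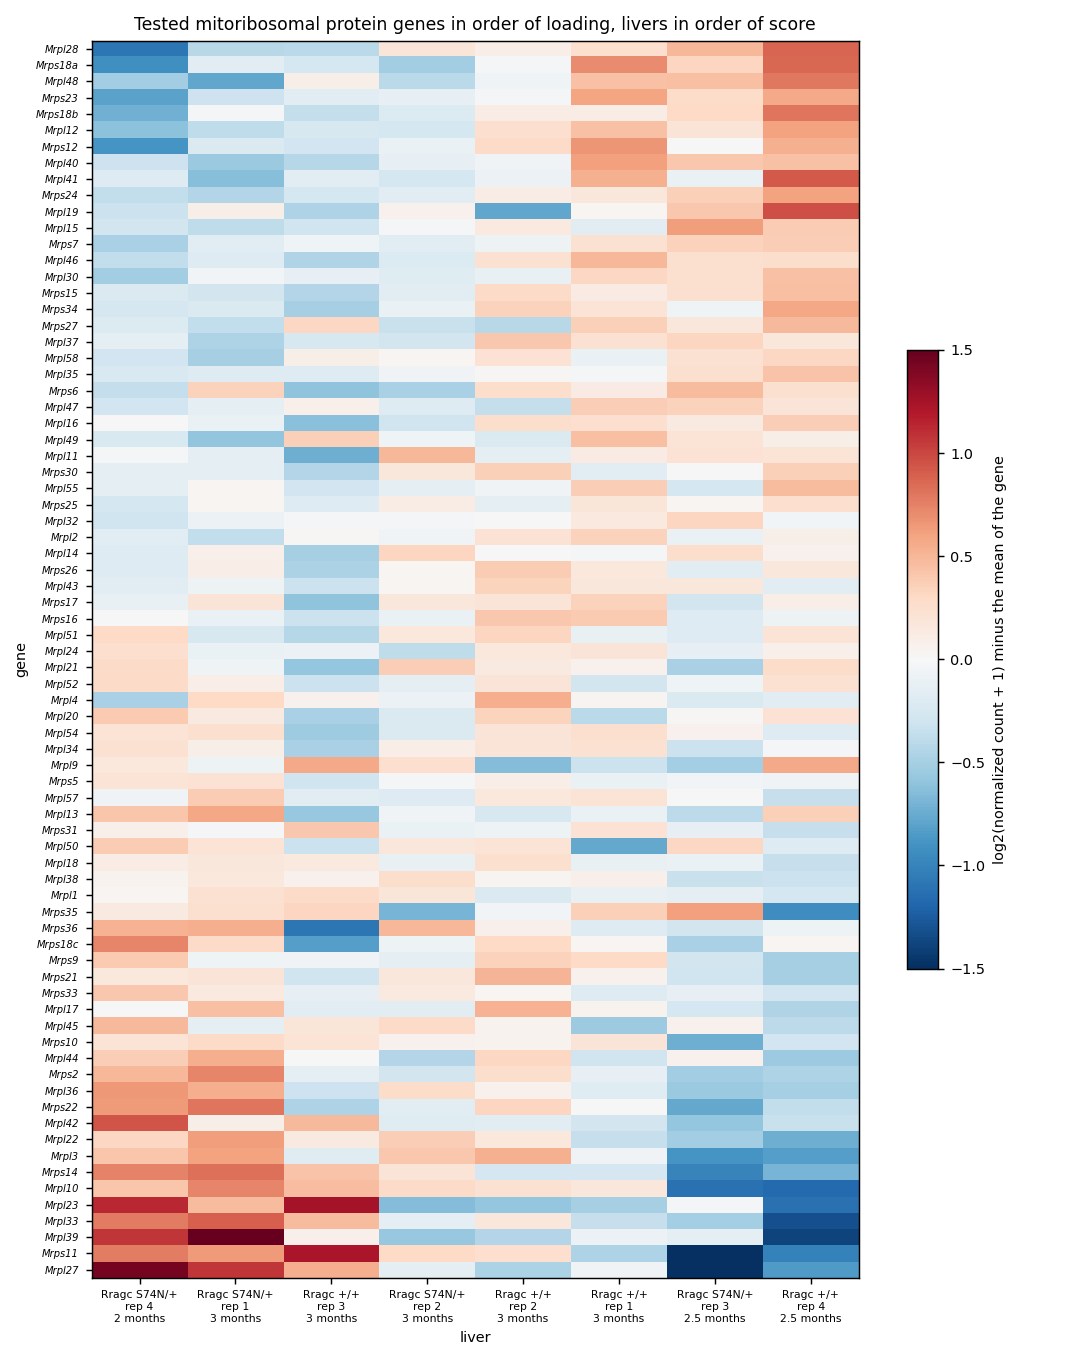
Log2(normalized read count + 1) minus the mean of the gene (color, -1.5 to 1.5) for the 76 tested mitoribosomal protein genes (rows, in order of their loading on the first component) in the 8 livers (columns, in order of their score, with genotype, replicate and age). The top rows run from blue at the left to red at the right and the bottom rows the reverse, with the 2.5-month-old mice of both genotypes at the right end.

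By expression level, the 10 genes with a mean of 50 to 100 normalized reads had a median log2 difference of 0.33, with 8 above 0, beside 0.04 for all tested genes of that level. The 26 genes at 200 to 500 had a median of -0.16, with 17 below 0, beside -0.06. In the 28 genes between these classes the median was -0.03, beside -0.01. The 5 genes at 10 to 50 had a median of 0.27, beside 0.09, and the 7 genes from 500 on had a median of -0.03, with 3 above 0, beside -0.05. The medians of the mitoribosomal protein genes thus did not fall steadily with level.

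Other genes of mitochondrial protein synthesis gave few values at an unadjusted limma p under 0.05 and none past adjustment. Of all tested genes, 2.37% were higher and 2.8% lower at that level. The 5 mitoribosomal proteins with other names, such as *Dap3*, had a median log2 difference of -0.05 and none at that level. Of 11 tested translation factors, 1 was lower, *Mtif3*, the initiation factor, with 196 ± 14.3 (SD, n = 4) normalized reads in *Rragc* +/+ against 135 ± 34.6 (SD, n = 4) in *Rragc* S74N/+ livers (log2 difference -0.57, SE 0.23, p 0.028, adjusted p 0.846). The elongation factor *Tufm* had a log2 difference of -0.25 (SE 0.21). Of 22 tested genes of ribosome assembly and ribosomal RNA modification, 1 was lower, *Trub2*, a pseudouridine synthase, at 86.0 ± 33.4 and 35.7 ± 15.2 (SD, n = 4 each), with a log2 difference of -1.27 (SE 0.39). None of 9 genes of mitochondrial transcription and RNA stability and none of 8 regulators was at that level. The transcription factor *Tfam* had a difference of -0.11 (SE 0.23), the polymerase *Polrmt* -0.17 (SE 0.26), the RNA stabilizer *Lrpprc* -0.20 (SE 0.22) and the coactivator *Ppargc1a* 0.49 (SE 0.42).

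Genes for the products and partners of the mitochondrial ribosome are given beside these. Among 98 tested nuclear genes of the respiratory chain and ATP synthase and their assembly, 2 were higher, *Cox17* and *Sdhd*, and 1 lower, *Cox10*, at an unadjusted limma p under 0.05, with a median log2 difference of 0.11. The 90 tested genes with names starting Rpl or Rps and a digit had a median of 0.13 and none at that level. Most such names are of cytosolic ribosomal protein genes, but the name rule can also take in genes of other function. Of 30 tested transcripts encoded by mitochondrial DNA, 22 had values below 0, and the median was -0.36. At that level 3 of the 30 were lower, *mt-Nd3* and the transfer RNA genes *mt-Tp* and *mt-Tw*. Over all tested genes, 2.37% were higher and 2.8% lower at that level. *mt-Nd3*, a subunit of complex I, had 5418, 4274, 4702 and 4473 normalized reads in the *Rragc* +/+ mice, against 2374, 3504, 3606 and 1795 in the *Rragc* S74N/+ mice. Its groups did not overlap, as was the case for 2.94% of all tested genes. Its log2 difference was -0.79 (SE 0.24, unadjusted limma p 0.0055, adjusted p 0.846). The libraries were primed at poly(A), and summed mitochondrial transcripts ranged from 938896 to 1409267 in *Rragc* +/+ and from 903125 to 1239107 in *Rragc* S74N/+ livers.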

How the data were processed

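Libraries were made from total RNA of whole liver with a stranded kit that sequences transcript 3′ ends. The authors checked reads with FastQC 0.11.7, aligned them to GRCm38 with TopHat2 2.0.10, Bowtie 1.0.0 and SAMtools 0.1.19, counted them with HTSeq 0.6.1 on a GENCODE annotation, and normalized with DESeq. The deposited values are that signal, normalized read counts per gene and liver. All values (100%, within 0.001) were whole multiples of 1 read, so reads were recovered, but without stated molecular identifiers they are not independent molecules. Reads in similar genes or pseudogenes are uncertain.

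Genes with a mean of at least 10 were tested with limma 3.58.1 in R 4.3.3 (trend, genotype only, Benjamini-Hochberg) on log2(normalized count + 1), which understates changes of low genes. On the recovered reads edgeR 4.0.16 called 1 gene and DESeq2 1.42.0 called 10 at an adjusted p under 0.05, none mitoribosomal. Scripts were tested on simulated data. Coordinates are from GENCODE M21 and promoters from RefSeq, both on GRCm38. The genes, lists and rules were chosen with earlier results of these data known. The text names genes at an unadjusted p under 0.05 or without overlap of the groups, the 5 largest differences in each direction, the 3 highest, lowest and steadiest genes, genes of special role, and any other as stated. *Mrpl53* was not analysed here. Other settings were pseudocounts of 0.1 and 5, a minimum mean of 50 or none, TMM rescaling, limma without trend, a covariate for age, only the 3-month-old mice, leaving out each liver, other motif and neighbour settings and, chosen after seeing the data, age as a factor and leaving out the shallowest and the youngest liver together.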

Additional observations from a re-analysis of the deposited data

Results flagged for a closer look

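In 48 groups of 4 livers, made of 24 values in both genotypes, 6 had a liver far from the others by Dixon's gap criterion, and chance marks about 1 group in 20, or 2.4 of 48. *Mrpl23* was 52.3 in *Rragc* +/+ replicate 3 and 9.34 to 14.9 in the other *Rragc* +/+ livers. *Mrpl32* was 119 in *Rragc* +/+ replicate 1 and 105 to 107 in the others of that genotype. *Mrps21* was 639 in *Rragc* S74N/+ replicate 3 beside 871 to 892, and *Mrps36* was 80.2 in the same liver beside 138 to 142. *Rragc* +/+ replicate 3 had 4313076 recovered reads beside 6177759 to 6509465 in the other *Rragc* +/+ livers. Its summed level of mitoribosomal protein genes was 14671 beside 18889 to 19539, although that sum is already scaled for depth.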

How the results depend on the processing

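No mitoribosomal protein gene passed an adjusted p of 0.05 under any setting tried, and the smallest adjusted p was 0.253, without *Rragc* S74N/+ replicate 3. The count at an unadjusted p under 0.05 was 3, with 5 at a mean of at least 50 (5.16% of all genes tested there), 0 for limma without trend (5.40%), and 0 to 11 without each liver in turn (2.81% to 15.0%). The count of genes without overlap was 1, with 16 of 76 in 3-month-old mice alone (21.8% of all tested genes), 10 without the shallowest and the youngest liver (8.84%) and 1 to 9 without each liver in turn, where fewer livers make overlap rarer. The median difference stayed between -0.07 and 0.07. The log2 ratio of the summed level, -0.11, ranged from -0.19 to -0.065 without each liver in turn. It was -0.18 without the shallowest and the youngest liver together. The difference in the mean log2 value of the tested genes, a measure that weights each gene alike, was -0.0062. In 3-month-old mice alone *Mrps12* was -0.38, *Mrpl12* -0.47, *Mrpl48* -0.75 and *Mrps36* 0.92. At an unadjusted limma p under 0.05 these mice gave 2 genes, *Mrpl48* and *Mrps36* (5.74% of all tested genes). With age as a covariate there were 2, *Mrpl41* and *Mrpl48* (3.71%), while *Mrps12* was -0.51 and *Mrpl12* -0.54 and neither was at that level. Age as a factor gave 3, *Mrpl12*, *Mrpl41* and *Mrpl48* (5.66%). The share of promoters with a motif exceeded that of all promoters by 35.2 percentage points, promoters of tested genes by 22.1 and, on the forward strand alone, all promoters by 25.3. Of 398 refitted differences of the 20 named and tested genes, 21 in 7 genes changed sign, and the cause was not tested. *Mrpl32* was 0.00052 with age as a covariate, 0.044 with age as a factor and 0.038 without the shallowest and the youngest liver. *Mrpl34* was -0.0071 with age as a factor and -0.18 without those livers, where *Mrps21* was -0.0018 and *Mrps18c* -0.21. In 3-month-old mice alone *Mrpl23* was -0.14, *Mrps25* 0.11 and *Mrps30* 0.090, and with age as a factor *Mrps25* was 0.015. Without each liver in turn *Mrpl32* ranged from -0.15 to 0.055, *Mrpl34* from -0.11 to 0.16, *Mrps18c* from -0.0051 to 0.43, *Mrps21* from -0.038 to 0.30, *Mrps25* from -0.13 to 0.027 and *Mrps30* from -0.21 to 0.051. No paired analysis was possible because replicate numbers only name the livers. At these depths 20 of the 76 intervals reached past 2-fold.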
